A study of Mus musculus with 4 samples.

Results

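Histone genes were compared in NIH3T3, a mouse fibroblast line established from embryos, between cells expressing Wild Type EGFR and cells expressing Deletion Mutant EGFR. EGFR is the receptor tyrosine kinase for epidermal growth factor. Members were all non-control probes whose gene name on the array began with Hist1h to Hist4h, H2af, H1f or H3f, which gave 80 of 55681 probes and 64 gene names. Of these, 49 were named after the histone gene clusters and 15 were named as replacement variants. Each of the 2 groups had 2 one-colour Agilent arrays hybridised with Cy3-labelled cRNA from cells at steady state, and the labels list no treatment. Both groups thus carried an introduced EGFR. What was deleted, from which species the receptor came, which promoter drove it and how many clones were used is not stated in the labels. Arrays of a group differed by their cDNA preparation, and nothing says that they came from different cultures or animals. All p-values below therefore rest on a spread between arrays that may be technical.

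Histones are the proteins around which DNA is wrapped. H2A, H2B, H3 and H4 form the core of the nucleosome, and H1 binds the linker DNA between nucleosomes. Genes of the histone clusters are replication-dependent: their mRNAs are made mainly in S phase, have no poly(A) tail and end a few bases after a conserved stem-loop, which is bound by the stem-loop binding protein SLBP. Replacement variants such as H3.3, H2A.Z and macroH2A are encoded outside the clusters, by genes whose mRNAs carry a poly(A) tail and are made throughout the cell cycle. Some cluster genes are known also to give longer, polyadenylated mRNAs, mostly in cells that have left the cycle. The sources used here do not give the primer that started the reverse transcription. The primer matters for mRNAs without a poly(A) tail. Whether the probes of cluster genes reported mRNAs without a tail or polyadenylated ones was therefore not determined.

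Between 42.9% and 46.9% of the non-control probes were well above background on each array, and no spot was flagged as saturated (0 on each array). The number of arrays limits the precision, and log2 fold changes had a median standard error of 0.0735. All 10 fibroblast markers examined were well above background on all 4 arrays, with summed levels of 11.03 and 11.08 in wild type against 10.32 and 10.37 in the deletion mutant. Of the markers of other cell types, 1 of 7 for epithelium, 3 of 6 for leukocytes and 2 of 4 for endothelium were well above background on all 4 arrays, and Epcam, Cdh1, Ptprc and Cdh5 were so on none. The summed leukocyte level was 5.13 and 5.23 in wild type against 4.34 and 4.32 in the deletion mutant, the summed epithelial level -1.05 and -1.36 against -0.61 and -0.63, and the summed endothelial level 2.83 and 2.71 against 2.71 and 2.75, and the part of these in the histone results was not tested. All arrays were on the same slide and each group filled a column of its own, so that column and group cannot be told apart. In bulk RNA, a change in the share of cells in S phase and a change in histone mRNA per cell cannot be told apart.

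The probes are 60 bases long, and their sequences matter here because histone genes are near copies of each other and because their mRNAs end at the stem-loop. The first set shows probes that hold the whole stem-loop, in capitals. The probes of Hist1h3a, Hist1h3i, Hist1h4m and the probe at Hist2h2bb end 3, 5, 6 and 6 bases after it. The probe of Hist2h2aa2 runs on for 38 bases beyond it.
Hist1h3a: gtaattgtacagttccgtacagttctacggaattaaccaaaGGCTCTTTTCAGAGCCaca
Hist1h3i: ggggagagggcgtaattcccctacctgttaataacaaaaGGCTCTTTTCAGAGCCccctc
Hist1h4m: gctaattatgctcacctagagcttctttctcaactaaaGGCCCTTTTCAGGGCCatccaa
Hist2h2bb, probe at the stem-loop: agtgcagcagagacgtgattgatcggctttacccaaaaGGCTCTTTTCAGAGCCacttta
Hist2h2aa2, probe past the stem-loop: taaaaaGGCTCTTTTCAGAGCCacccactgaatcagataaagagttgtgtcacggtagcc
In mm9 coordinates of the array design, these probes lie at chr13:23853756-23853815 on the minus strand, chr13:21874784-21874843 on the minus strand, chr13:21903960-21904019 on the plus strand, chr3:96074056-96074115 on the plus strand and chr3:96043669-96043728 on the minus strand. Whether a probe lies in an exon or an intron was not analysed here.

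The second set shows other probes on which opposite directions rest. Hist2h2bb has a further probe 8698 bases downstream of its stem-loop probe, at chr3:96082754-96082813 on the plus strand, with the poly(A) signal AATAAA in capitals. AATAAA was searched on the probe strand only and occurred in 12.6% of all 25162 kept probes and in 2 of the 45 kept probes of cluster genes, the other being that of Hist1h2ag. The probe of Hist2h3c2 ends in a run of A, in capitals, and is not placed on the genome by the array design. The probes of Hist1h1c (chr13:23832018-23832077, plus strand) and Hist1h2bc (chr13:23784254-23784313, plus strand) hold none of these features.
Hist2h2bb, downstream probe: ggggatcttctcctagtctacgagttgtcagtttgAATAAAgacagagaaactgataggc
Hist2h3c2: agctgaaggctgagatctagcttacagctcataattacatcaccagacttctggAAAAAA
Hist1h1c: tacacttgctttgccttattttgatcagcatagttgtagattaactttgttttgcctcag
Hist1h2bc: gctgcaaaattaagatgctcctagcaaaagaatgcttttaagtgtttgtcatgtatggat

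The third set shows why many H2A genes cannot be separated. Capitals mark the longest run that a probe shares with a probe of another histone gene. The probes of Hist1h2ah, Hist2h2ac, Hist2h2aa2 (coding end) and H2afj share runs of 38 to 42 bases, while the own probe of H2afj, 1252 bases downstream, shares no long run.
Hist1h2ah: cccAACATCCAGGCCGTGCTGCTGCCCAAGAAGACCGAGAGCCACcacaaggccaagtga
Hist2h2ac: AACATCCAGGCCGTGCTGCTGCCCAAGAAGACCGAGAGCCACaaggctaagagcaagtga
Hist2h2aa2, shared probe: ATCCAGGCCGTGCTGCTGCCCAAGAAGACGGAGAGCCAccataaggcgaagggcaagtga
H2afj, shared probe: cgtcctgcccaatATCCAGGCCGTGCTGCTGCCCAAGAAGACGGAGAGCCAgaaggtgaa
H2afj, own probe: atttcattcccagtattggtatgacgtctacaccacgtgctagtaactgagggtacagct
These probes lie at chr13:22127035-22127094 (minus), chr3:96024378-96024437 (minus), chr3:96043781-96043840 (minus), chr6:136757181-136757240 (plus) and chr6:136758433-136758492 (plus). In all, 8 probes of 8 genes were linked in this way by runs of 32 to 42 bases: Hist1h2af, Hist1h2ag, Hist1h2ah, Hist1h2ak, Hist1h2an, Hist2h2aa2, Hist2h2ac and H2afj. Their values may report any of these mRNAs.

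Cluster histone genes were mostly higher in the deletion-mutant cells, and the exceptions were a small set that fell, some of them by more than most others rose. A probe was kept where either group had it well above background on both of its arrays. A gene was represented by its brightest kept probe, and 51 of the 64 genes had one. Of 39 cluster genes measured in this way, 29 rose, 7 fell and 3 did not pass an adjusted p of 0.05 by limma. Their median log2 fold change was 0.86 (1.81-fold). The rises of Hist1h2af, Hist1h2ag, Hist1h2ah, Hist1h2ak, Hist1h2an, Hist2h2aa2 and Hist2h2ac came from probes linked by runs of 32 to 42 bases. They are thus not separate measurements. Hist2h2aa2 and Hist2h2bb were counted as rises, while another kept probe of each had a log2 fold change of -2.98 and -2.43. Hist1h4i was counted as a rise by a probe that is not placed on the genome, while another kept probe of it had -0.31. Over all 18093 features, 58.8% passed, 34.6% upwards and 24.2% downwards, with a median log2 fold change of 0.07. At least 2-fold rises were seen for 13 cluster genes against 5.94% of all features, and at least 2-fold falls for 4, against 7.46%. Among these rises, Hist2h2ab was kept through the deletion-mutant group alone. Of the histone genes well above background on all 4 arrays, 12 rose by at least 2-fold. Both deletion-mutant arrays lay above both wild-type arrays for 30 cluster genes and below them for 7, against 46.4% and 35.3% of all features.

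Replacement variants showed no such majority. Of 12 measured, 5 rose, 2 fell and 5 did not pass, with a median log2 fold change of 0.19 (1.14-fold). The rise of H2afj came from the probe linked to those of cluster H2A genes, while its own probe differed by 0.16 and did not pass. By the brightest probe none changed by 2-fold or more, while a dimmer probe of H2afy rose by 1.05 (2.08-fold). The share that rose was close to the 34.6% of all features. The difference between the medians of the classes was not tested. The plot of fold changes by gene shows both classes with their errors.

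**Figure D1:**
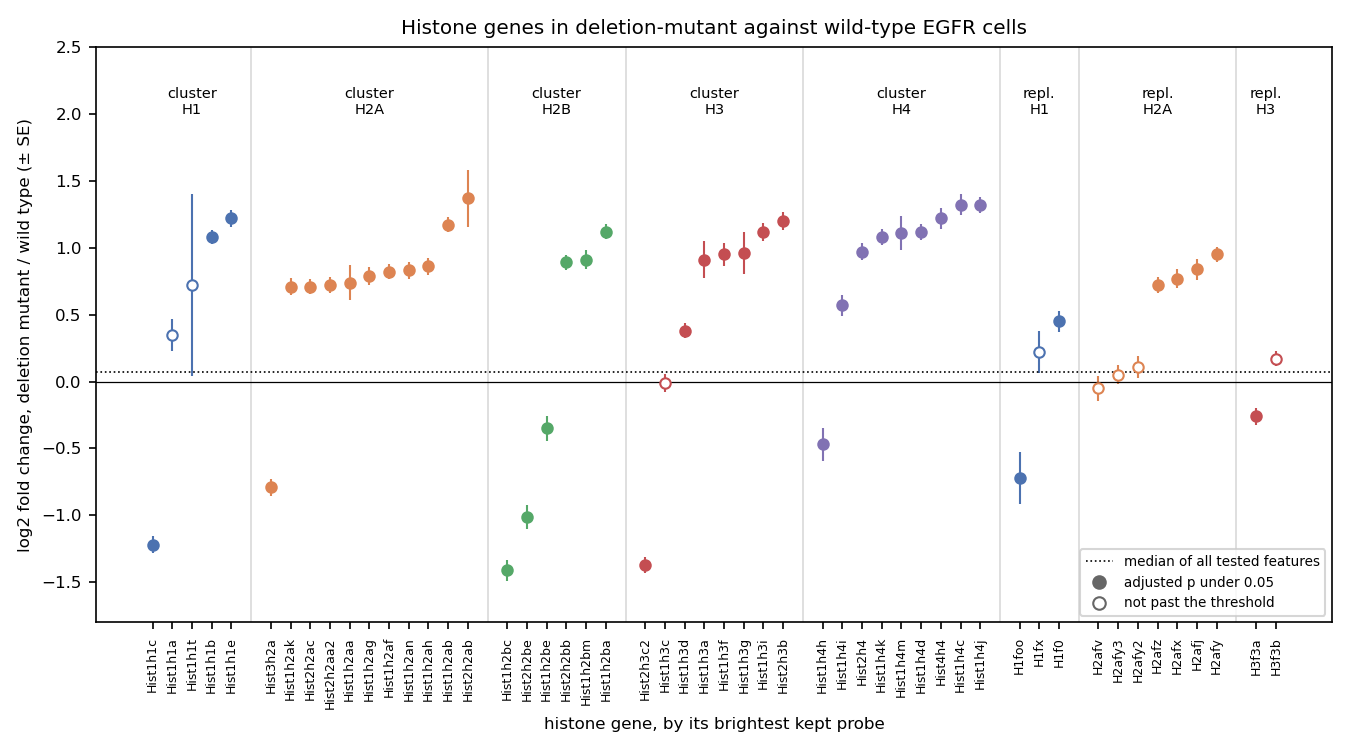
Log2 fold change (deletion mutant over wild type, y axis, ± SE of the limma fit, 2 arrays per group) of each histone gene by its brightest kept probe, ordered within class and histone type along the x axis. Filled points passed an adjusted p of 0.05, and the dotted line is the median of all features at 0.07; most cluster points lie between 0.7 and 1.4, with 7 filled points below 0.

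The counts are given by locus and then by histone type, to be read beside 34.6% of all features that rose and 24.2% that fell. In the Hist1 cluster, on chromosome 13, 22 of 29 measured genes rose and 4 fell, with a median of 0.86. In the Hist2 cluster, on chromosome 3, 6 of 8 rose and 2 fell, with a median of 0.80. Genes were assigned to a locus by name, and the counted probes of Hist2h3c2 and Hist1h4i are not placed on the genome. The only Hist3 gene measured, Hist3h2a on chromosome 11, fell, and Hist4h4 on chromosome 6 rose.

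Of 9 H4 genes, 8 rose and 1 fell, with a median of 1.11 (2.16-fold). The rise of Hist1h4i rests on an unplaced probe, and another of its probes fell. By quantile normalization the H4 median was 0.89, below that of the H3 genes at 1.07, while in the other scalings it lay above it. The pairs of values given for a gene are levels in log2 units above or below the 75th percentile of the array, so that a difference of 1 is a 2-fold change. They were 1.15 and 1.10 in wild type and 2.43 and 2.46 in the deletion mutant for Hist1h4j, a rise of 1.32 (SE 0.058, adjusted p = 4.66e-04). For Hist1h4c they were -0.05 and -0.10 against 1.33 and 1.17, a rise of 1.32 (SE 0.079, adjusted p = 7.85e-04). In both genes the gap between groups was many times the gap between arrays of a group.

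Hist4h4, the H4 gene outside the large clusters, had levels of 3.65 and 3.65 against 4.96 and 4.79, a rise of 1.22 (2.34-fold, adjusted p = 9.30e-04). Hist1h4d read 5.03 and 5.03 against 6.12 and 6.19, a rise of 1.12 (adjusted p = 6.23e-04). The probes of Hist1h4d and Hist1h4j and the dimmer probe of Hist1h4k are linked by runs of 21 to 26 bases, so that they are not fully separate measurements. The brightest probe of Hist1h4k, which represents the gene, shares at most 8 bases. The H4 gene that fell, Hist1h4h, had levels of -1.47 and -1.50 against -2.11 and -1.79. Its fall by 0.47 (SE 0.122, adjusted p = 0.0326) no longer passed after median, quantile or spike-in scaling, nor without either wild-type array (adjusted p = 0.133 and 0.116).

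Of 11 cluster H2A genes, 10 rose and 1 fell, with a median of 0.79 (1.73-fold). Most of these rises came from the probes with long shared runs and are not separate measurements. Hist2h2ab rose the most, from -2.78 and -3.34 to -1.58 and -1.80, a log2 fold change of 1.37 (SE 0.214, adjusted p = 0.00733), but its probe was well above background on only 1 of the wild-type arrays. Hist1h2ab had levels of 5.60 and 5.62 against 6.77 and 6.81, a rise of 1.17 (SE 0.056, adjusted p = 5.43e-04). Its probe shared at most 15 bases with another histone probe.

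The H2A genes with shared probes moved by nearly equal amounts. Hist1h2ah read 8.20 and 8.28 in wild type and 9.09 and 9.12 in the deletion mutant, a rise of 0.86 (SE 0.061, adjusted p = 0.00110). Hist1h2an read 7.59 and 7.51 against 8.41 and 8.36, a rise of 0.83 (adjusted p = 0.00124). The other shared cluster probes, of Hist1h2af, Hist1h2ag, Hist2h2aa2, Hist2h2ac and Hist1h2ak, rose by 0.82, 0.79, 0.72, 0.71 and 0.71. These were bright probes, with processed signals in the deletion mutant of 111000 units for Hist1h2an to 195000 units for Hist1h2ah. A second probe of Hist1h2ak, 333 bases upstream and sharing at most 10 bases, rose from 4.87 and 4.80 to 6.03 and 6.11, a log2 fold change of 1.24 (adjusted p = 9.39e-04 in the fit of every probe by itself). Whether the difference between these probes of Hist1h2ak reflects the shared sequence or their brightness was not tested.

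Hist1h2aa, an H2A gene next to the testis H2B gene Hist1h2ba on chromosome 13, rose from -1.65 and -1.98 to -1.01 and -1.13, a log2 fold change of 0.74 (adjusted p = 0.0112). Hist3h2a was the H2A gene that fell. Its levels were 2.62 and 2.60 in wild type and 1.87 and 1.77 in the deletion mutant, a fall by 0.79 (SE 0.064, adjusted p = 0.00146). The arrays of both groups did not overlap.

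The H2B genes were divided. Of 12 named on the array, 6 were measured, of which 3 rose and 3 fell. Hist1h2bc fell the most of all cluster genes by their brightest probe, from 1.49 and 1.54 to 0.02 and 0.19, a log2 fold change of -1.41 (SE 0.080, 2.66-fold, adjusted p = 7.20e-04). Hist2h2be fell from -2.03 and -1.83 to -2.97 and -2.90, by 1.01 (adjusted p = 0.00183). Hist1h2be had levels of -1.66 and -1.51 against -1.85 and -2.02, a fall by 0.35 (adjusted p = 0.0332) that did not pass after median, quantile or spike-in scaling, nor without either wild-type array (adjusted p = 0.0638 and 0.137) or the second deletion-mutant array (adjusted p = 0.0985).

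The H2B genes that rose did so by similar amounts. Hist1h2ba, which encodes the H2B of the testis, rose from 0.70 and 0.66 to 1.81 and 1.80, by 1.12 (SE 0.056, adjusted p = 5.81e-04). Hist1h2bm rose from 1.75 and 1.88 to 2.73 and 2.73, by 0.91 (adjusted p = 0.00131). Hist2h2bb, by its stem-loop probe, rose from 2.05 and 2.12 to 2.97 and 2.98, by 0.89 (adjusted p = 9.66e-04). The groups did not overlap in any of the 6 H2B genes. Such separation was common, with 46.4% of all features wholly above and 35.3% wholly below in the deletion mutant.

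All 8 cluster H3 genes were measured, and 6 rose, 1 fell and 1 did not pass, with a median of 0.93 (1.90-fold). Hist2h3b rose from 1.42 and 1.54 to 2.67 and 2.69, a log2 fold change of 1.20 (SE 0.069, adjusted p = 7.42e-04). Hist2h3c2, named after the same cluster but with an unplaced probe, fell from -0.26 and -0.28 to -1.60 and -1.67. Its log2 fold change was -1.37 (SE 0.060, 2.58-fold, adjusted p = 4.74e-04). This was the gene whose probe ends in a run of A.

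Hist1h3i rose from -1.79 and -1.72 to -0.58 and -0.68, by 1.12 (adjusted p = 8.05e-04). Hist1h3g rose from -2.15 and -1.95 to -0.89 and -1.28, by 0.96 (adjusted p = 0.00864; 0.0540 without the first wild-type array). Both probes hold the whole stem-loop. Hist1h3c had levels of 1.37 and 1.48 against 1.39 and 1.44, a difference of -0.01 (SE 0.069, adjusted p = 0.927). Its probe shares 36 bases with that of Hist1h3f, which rose from -2.15 and -1.97 to -1.15 and -1.07, by 0.95 (adjusted p = 0.00183). The groups of Hist1h3c overlapped and those of Hist1h3f did not.

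Among the linker histones of the cluster, 5 of 6 genes were measured, and 2 rose, 1 fell and 2 did not pass. Hist1h1e (current symbol H1f4) rose from 3.61 and 3.69 to 4.84 and 4.91, by 1.22 (SE 0.065, adjusted p = 6.24e-04), and Hist1h1b rose from 3.01 and 2.98 to 4.07 and 4.08, by 1.08 (SE 0.055, adjusted p = 5.89e-04). Hist1h1c (current symbol H1f2) went the other way, from 0.74 and 0.84 to -0.44 and -0.42, a log2 fold change of -1.22 (SE 0.064, 2.32-fold, adjusted p = 6.23e-04). In each of these 3 genes the arrays of a group differed by no more than 0.10.

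Hist1h1a had levels of -1.56 and -1.86 against -1.35 and -1.38, a difference of 0.35 (SE 0.118, adjusted p = 0.0643), which passed under median, quantile and spike-in scaling and without the first wild-type array (adjusted p = 0.0249). Hist1h1t, which encodes the testis H1, had levels of -2.93 and -3.42 against -3.41 and -1.51. The arrays of the deletion-mutant group were far apart for this gene, and its difference of 0.72 (SE 0.681, adjusted p = 0.412) was 1.67 (adjusted p = 0.00730) without the first deletion-mutant array and -0.23 without the second.

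Of the 11 histone genes with more than 1 kept probe, 4 had probes that passed in opposite directions. These were read from a fit of every probe by itself, in which 56.7% of 25162 probes passed (32.6% upwards and 24.1% downwards). In this fit 41 of 65 kept histone probes rose and 13 fell. The 4 genes were Hist2h2aa2, Hist2h2bb, Hist1h4i and H2afy.

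Hist2h2aa2 gave the widest contrast. Its shared coding-end probe had levels of 7.79 and 7.85 in wild type and 8.54 and 8.54 in the deletion mutant, a rise of 0.72 (adjusted p = 0.00202). The probe that runs 38 bases past the stem-loop, 112 bases downstream, had levels of 3.15 and 3.21 against 0.16 and 0.25. That is a log2 fold change of -2.98 (SE 0.069, 7.88-fold lower, adjusted p = 3.07e-04), the largest change of any kept histone probe. It is a gene with near-identical copies, and the copy that each probe reports cannot be told apart.

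Hist2h2bb repeated the pattern at another place. Its stem-loop probe rose by 0.89, and the probe 8698 bases downstream had levels of 0.60 and 0.37 against -1.72 and -2.17, a log2 fold change of -2.43 (SE 0.185, 5.38-fold lower, adjusted p = 0.00166). Whether the downstream probe reports a transcript of Hist2h2bb or of another transcription unit was not tested. With the mean of the probes in place of the brightest, both Hist2h2aa2 and Hist2h2bb turned to falls, by 1.13 and by 0.77.

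For Hist1h4i the contrast was small. A probe in the gene had levels of -0.95 and -1.22 against -0.59 and -0.63, a rise of 0.47 (adjusted p = 0.0260). An unplaced probe that ends in a run of A rose from -0.67 and -0.66 to -0.01 and -0.18, by 0.57 (adjusted p = 0.00693). This probe, the brightest by its mean over the arrays, represents the gene in the counts. The probe 548 bases downstream had levels of -0.41 and -0.37 against -0.79 and -0.61, a fall by 0.31 (adjusted p = 0.0385).

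H2afy encodes macroH2A1, a variant with a large extra domain, and its probes are described by the array as matching different transcript variants. The probe of variant 1 rose from 1.87 and 1.93 to 2.84 and 2.85, by 0.95 (adjusted p = 0.00121), and that of variant 4 from 0.39 and 0.40 to 1.37 and 1.53, by 1.05 (adjusted p = 0.00170). The probe of variant 3 had levels of 0.56 and 0.53 against 0.34 and 0.31, a fall by 0.22 (adjusted p = 0.0386). Groups did not overlap for any of these 3 probes, as for most features (46.4% wholly above and 35.3% wholly below, by gene).

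**Figure D2:**
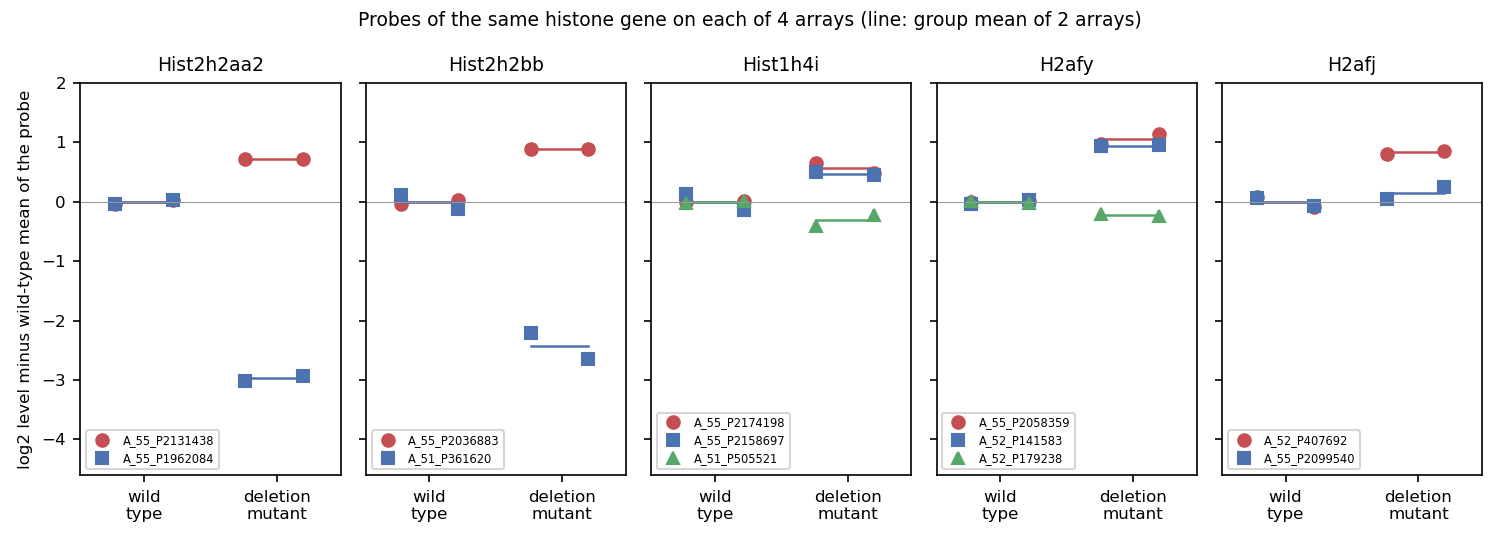
Levels of the kept probes of 5 histone genes on each array, as log2 level minus the probe's mean over the wild-type arrays (y axis), with the groups on the x axis, 1 symbol per probe and lines at the mean of 2 arrays. The probe past the stem-loop of Hist2h2aa2 lies near -3 and the downstream probe of Hist2h2bb near -2.4, while the other probe of each gene lies between 0.7 and 0.9.

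Probes were also sorted by what they contain. Of 12 cluster probes without the whole stem-loop that share a run of at least 20 bases with a probe of another histone gene, 11 rose, 0 fell and 1, that of Hist1h3c, did not pass by limma, with a median of 0.83. At an unadjusted p under 0.05, too, 0 fell. All 12 belong to the linked H2A probes, to the linked probes of Hist1h4d, Hist1h4j and Hist1h4k, or to the pair of Hist1h3c and Hist1h3f. Within each of these sets the probes are not separate measurements. Over all 25162 probes, 32.6% rose and 24.1% fell. Of the 6 that hold the whole stem-loop, 5 rose, Hist1h3a by 0.91, Hist1h3g by 0.96, Hist1h3i by 1.12, Hist1h4m by 1.11 and Hist2h2bb by 0.89, and all of these end 3 to 6 bases after it. The sixth was the probe of Hist2h2aa2 that runs on for 38 bases, which fell. Of the 27 with neither feature, 16 rose, 9 fell and 2 did not pass.

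With the exception of the Hist2h2aa2 probe, all cluster probes that fell were thus in the group with neither feature. They belonged to Hist2h2bb (downstream), Hist1h2bc, Hist2h3c2, Hist1h1c, Hist2h2be, Hist3h2a, Hist1h4h, Hist1h2be and Hist1h4i (downstream). This sorting was made after values of these data had been seen, and no difference between the probe groups was tested. When each gene was instead represented by the probe with the shortest shared run, 27 cluster genes rose and 9 fell.

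**Figure D3:**
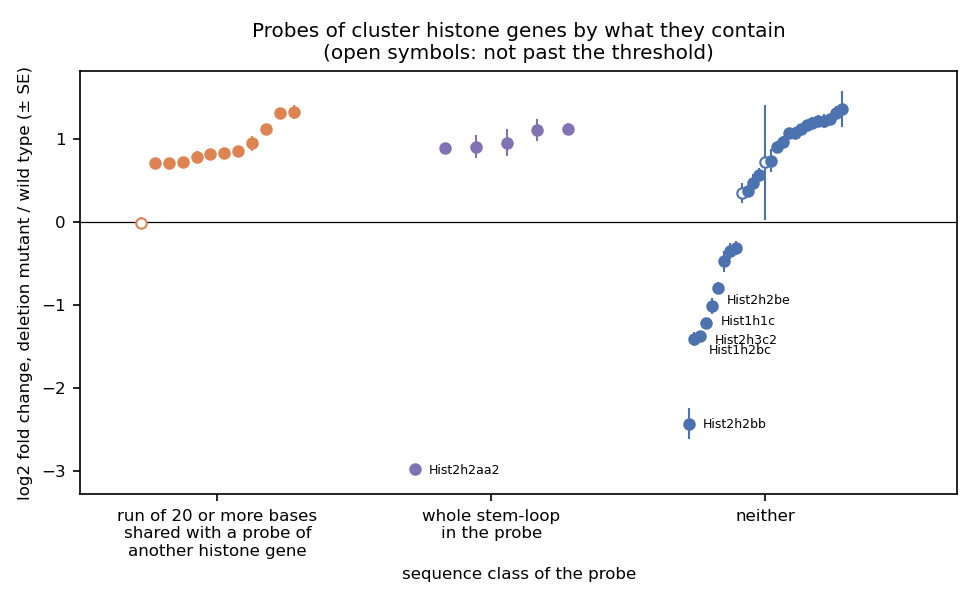
Log2 fold change (deletion mutant over wild type, y axis, ± SE of the fit of every probe by itself, 2 arrays per group) of the 45 kept probes of cluster histone genes, by sequence content of the probe (x axis). Open symbols did not pass an adjusted p of 0.05; the names mark the probes that fell by more than 0.9, the lowest being that of Hist2h2aa2 at -2.98.

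The replacement variants of H2A held most of the rises outside the clusters: 4 of 7 rose, against 34.6% of all features, and 3 did not pass. H2afx encodes H2A.X, which is phosphorylated at DNA breaks. Its levels were 3.99 and 3.87 in wild type and 4.71 and 4.69 in the deletion mutant, a rise of 0.77 (SE 0.069, adjusted p = 0.00180). H2afz encodes H2A.Z, which is enriched at promoters, and rose from 7.06 and 7.11 to 7.80 and 7.83, by 0.72 (SE 0.058, adjusted p = 0.00143). Its second probe, 104 bases downstream, rose from 5.17 and 5.25 to 6.20 and 6.19, by 0.99 (adjusted p = 0.00126 in the fit of every probe).

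H2afy rose by 0.95 (SE 0.058, adjusted p = 8.20e-04) by its brightest probe, with the opposite direction for variant 3 given above. H2afj encodes H2A.J, and its rise rests on the probe shared with cluster H2A genes. That probe had levels of 7.98 and 7.82 against 8.71 and 8.75, a rise of 0.84 (SE 0.079, adjusted p = 0.00200). The own probe of H2afj had levels of 0.75 and 0.62 against 0.74 and 0.94, a difference of 0.16 (SE 0.100, adjusted p = 0.240), with overlapping groups.

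The other H2A variants did not pass. H2afv, which encodes the second H2A.Z, had levels of 5.69 and 5.91 against 5.72 and 5.79, a difference of -0.05 (SE 0.094, adjusted p = 0.677). H2afy2, which encodes macroH2A2, had levels of 3.53 and 3.54 against 3.73 and 3.56, a difference of 0.11 (adjusted p = 0.286) that passed as higher after median scaling (0.29, adjusted p = 0.0242) and with the authors' log2 values (0.29, adjusted p = 0.0239). H2afy3 had levels of 3.45 and 3.35 against 3.41 and 3.49, a difference of 0.05 (adjusted p = 0.601). The direction of each of these 3 turned under at least 1 other scaling.

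Both genes of H3.3, the H3 variant that is placed in chromatin outside replication, differed by less than 0.30 on the log2 scale by their brightest probe. H3f3a had levels of 5.45 and 5.39 against 5.12 and 5.20, a fall by 0.26 (SE 0.065, adjusted p = 0.0272). Its other probe, with levels of 5.24 and 5.01 against 4.98 and 4.97, differed by -0.15 (adjusted p = 0.253). The fall of H3f3a no longer passed after median or spike-in scaling, where it was -0.08 and -0.18, nor without either wild-type array or the first deletion-mutant array (adjusted p = 0.120, 0.0794 and 0.105).

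H3f3b had levels of 6.29 and 6.31 against 6.50 and 6.45, a difference of 0.17 (SE 0.057, adjusted p = 0.0632). Its other probes rose, from 3.72 and 3.72 to 4.16 and 4.15 (by 0.43, adjusted p = 0.00537) and from -1.17 and -1.03 to -0.79 and -0.84 (by 0.29, adjusted p = 0.0350). The call of the brightest probe depended on the scaling. It passed as higher after median scaling (0.35, adjusted p = 0.00690), with the authors' log2 values (0.35, adjusted p = 0.00693) and after spike-in scaling (0.25, adjusted p = 0.0218), and turned to -0.0039 and -0.02 by quantile normalization and by the percentile of detected probes. It also passed with an intensity trend and robust variances (0.17, adjusted p = 0.0119), and the mean of the probes of H3f3b passed at 0.30 (adjusted p = 0.0132).

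The linker variants differed among themselves. H1f0 encodes H1.0, which is known to accumulate in cells that have stopped dividing. It rose from 0.67 and 0.68 to 1.04 and 1.21, by 0.45 (SE 0.080, adjusted p = 0.0107). H1foo, which encodes the H1 of the oocyte, had levels of -2.18 and -2.01 against -2.55 and -3.07, a fall by 0.72 (SE 0.194, adjusted p = 0.0355). H1fx had levels of -2.15 and -2.04 against -2.08 and -1.67, a difference of 0.22 (SE 0.156, adjusted p = 0.296), which was 0.42 and passed (adjusted p = 0.0271) without the first deletion-mutant array and was 0.01 (adjusted p = 0.936) without the second. The rise of H1f0 was 0.26 (adjusted p = 0.0550) with the percentile of detected probes, and it did not pass without either wild-type array (adjusted p = 0.0610 and 0.0581). The difference of H1foo was -0.25 (adjusted p = 0.0516) with normexp, -0.54 after median (adjusted p = 0.0516) or quantile (adjusted p = 0.0865) scaling, and -0.91 by the percentile of detected probes. It was -0.97 and -0.46 without the first and the second deletion-mutant array, and it did not pass without either wild-type array (adjusted p = 0.101 and 0.152).

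**Figure D4:**
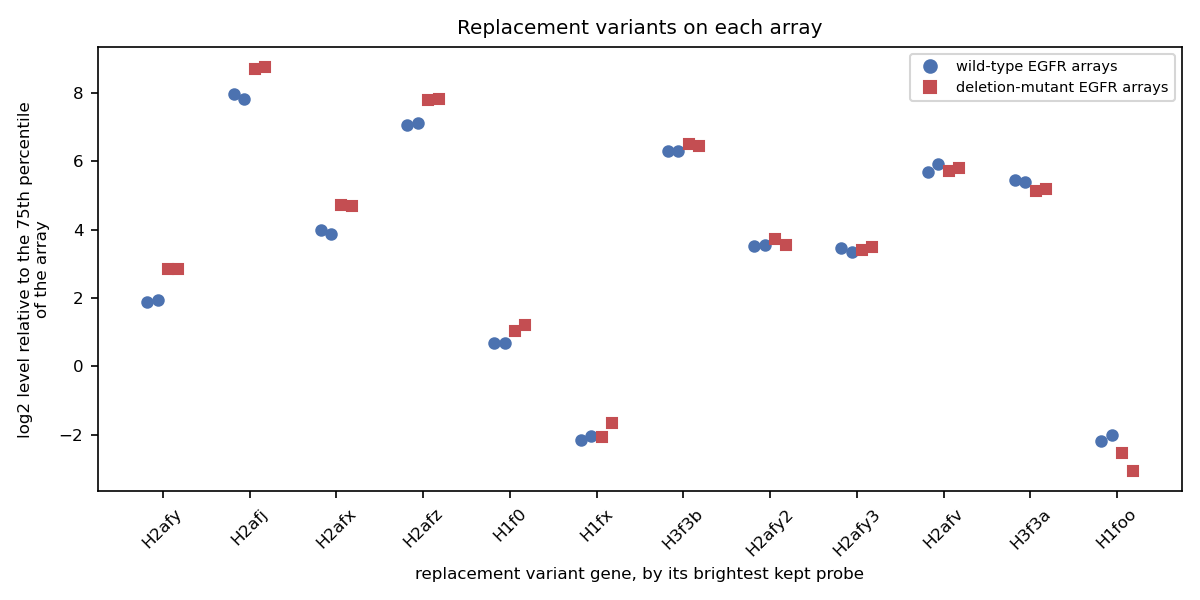
Level of each measured replacement variant on each array, in log2 units relative to the 75th percentile of the array (y axis), by its brightest kept probe and ordered by fold change (x axis), with 2 arrays per group. Deletion-mutant squares lie above both wild-type circles for 7 genes and below both for H3f3a and H1foo, against 46.4% and 35.3% of all features. Heights of different genes are not comparable because their probes differ.

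Promoters of the histone genes were read from RefSeq on GRCm38.p6, as 250 bases before to 50 bases after the start, and 53 of the 64 genes had an entry (60 matched a RefSeq accession). Hist1h1e and Hist1h1c are shown because they encode linker histones of the same cluster and moved in opposite directions by equal amounts. Capitals mark the H1 box AAACACA, the CCAAT box and, in Hist1h1e, TATAA. Only the exact letters TATAA were searched, and the promoter of Hist1h1c reads tatatata after its CCAAT box, which is not marked. The promoters lie at chr13:23622509-23622808 on the minus strand and chr13:23738557-23738856 on the plus strand.
Hist1h1e promoter: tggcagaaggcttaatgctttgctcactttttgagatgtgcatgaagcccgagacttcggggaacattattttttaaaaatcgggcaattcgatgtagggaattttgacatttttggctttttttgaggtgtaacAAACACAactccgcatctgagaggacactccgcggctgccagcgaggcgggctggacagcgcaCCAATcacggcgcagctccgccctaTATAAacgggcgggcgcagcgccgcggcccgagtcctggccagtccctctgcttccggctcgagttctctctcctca
Hist1h1c promoter: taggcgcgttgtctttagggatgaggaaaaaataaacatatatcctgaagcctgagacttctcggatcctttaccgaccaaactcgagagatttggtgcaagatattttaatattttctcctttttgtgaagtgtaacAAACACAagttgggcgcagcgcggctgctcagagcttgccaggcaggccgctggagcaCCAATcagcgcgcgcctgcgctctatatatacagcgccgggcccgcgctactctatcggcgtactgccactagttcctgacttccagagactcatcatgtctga
Both promoters hold the H1 box and the CCAAT box at nearly the same places, -115 and -52 in Hist1h1e and -112 and -54 in Hist1h1c, counted from the start.

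Motifs were counted on both strands of the 53 promoters and of all 27025 promoters of the RefSeq table. No motif searched is contained in another. The windows of Hist1h2aa and Hist1h2ba, of Hist1h2ae and Hist1h2bg, and of Hist1h2an and Hist1h2bp overlap. Promoters of these pairs are thus not separate in the counts. CCAAT was found in 35 of 41 cluster promoters and 7 of 12 promoters of replacement variants, against 41.1% of all promoters. By type it was in all cluster promoters of H1, H2A, H2B and H3 and in 2 of 8 of H4. TATAA was found in 35 of 41 cluster promoters and 1 of 12 of replacement variants, against 28.0% of all.

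The octamer ATTTGCAT, the site of POU2F1 in H2B promoters, was found in 6 of 9 cluster promoters of H2B and 7 of 13 of H2A, against 1.97% of all. The H2B matches lay on the strand of the gene and the H2A matches on the opposite strand. Hist1h2aa and Hist1h2ba share the same octamer in their overlapping windows, as do Hist1h2ae and Hist1h2bg, so that it was counted for both types. AAACACA was found in 5 of 6 cluster promoters of H1, against 8.22% of all. The E2F-type motifs TTTGGCGC and TTTCCCGC were in 0 of the 53. Among cluster genes that rose, 21 of 26 promoters held CCAAT and 22 of 26 TATAA. Among those that fell and had an entry, it was 3 of 4 for each. A match describes the letters in this window only.

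Genes that act on histones were read from lists chosen by function. Their counts stand beside 34.6% of all features that rose and 24.2% that fell. The first list holds genes for the transcription and 3' processing of histone mRNA, of which 17 of 20 were measured: 14 rose, 1 fell and 2 did not pass, with a median of 0.62 (1.54-fold). Ccne1, which encodes cyclin E1, the partner of CDK2 at the start of S phase, rose from 2.39 and 2.26 to 3.69 and 3.68, by 1.36 (adjusted p = 6.11e-04). Eri1, an exonuclease that trims the stem-loop end, rose from -0.88 and -0.76 to 0.33 and 0.25, by 1.12 (adjusted p = 9.54e-04). Slbp rose from 0.87 and 0.87 to 1.98 and 1.80, by 1.02 (adjusted p = 0.00140).

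Lsm10 and Lsm11 are subunits of the U7 particle, which guides the cut after the stem-loop. Lsm11 rose from -0.96 and -1.08 to -0.16 and -0.10, by 0.89 (adjusted p = 0.00145). Lsm10 had levels of 3.95 and 3.98 against 3.74 and 3.73, a fall by 0.23 (adjusted p = 0.0236). This was the only fall of the list, and it was not called after median scaling (-0.05, adjusted p = 0.456), after spike-in scaling (-0.15, adjusted p = 0.0989), with the authors' log2 values (-0.05, adjusted p = 0.468), with no background filter (adjusted p = 0.154), or without any 1 of the arrays (adjusted p = 0.0823 to 0.104). Npat, the activator of histone transcription at histone locus bodies, had no probe well above background on both arrays of a group and was not tested.

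The second list holds chaperones and carriers of histones, of which 28 of 30 were measured. Against 34.6% upwards and 24.2% downwards over all features, 19 of them rose, 2 fell and 7 did not pass. Their median was 0.52 (1.43-fold). By the percentile of detected probes, 15 rose and 4 fell with a median of 0.32, and after median scaling 23 rose and 1 fell with a median of 0.70. Asf1b, which hands H3 and H4 to the assembly factors, rose from 2.48 and 2.45 to 3.96 and 3.94, by 1.49 (adjusted p = 3.39e-04). Subunits of CAF-1, which places H3 and H4 at replication forks, rose as well, Chaf1a from 1.68 and 1.89 to 3.12 and 3.19 (by 1.37) and Chaf1b from 2.84 and 2.84 to 4.15 and 3.99 (by 1.23). Anp32e, which removes H2A.Z, rose from 0.90 and 0.94 to 2.06 and 1.98, by 1.10 (adjusted p = 7.33e-04).

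The members that fell belong to the HIRA complex, which places H3.3. Ubn1 had levels of 3.57 and 3.71 against 3.08 and 3.07, a fall by 0.57 (adjusted p = 0.00419), and Ubn2 had levels of 3.08 and 3.14 against 2.82 and 2.76, a fall by 0.32 (adjusted p = 0.0140). The fall of Ubn2 was not called after median scaling (-0.14, adjusted p = 0.106), with the authors' log2 values, with no background filter, with the mean of its probes (-0.19, adjusted p = 0.0841), or without either wild-type array or the second deletion-mutant array (adjusted p = 0.0513, 0.0734 and 0.0567). Hira itself rose from 1.13 and 1.03 to 1.68 and 1.68, by 0.60 (adjusted p = 0.00270). Cabin1, of the same complex, had levels of 1.50 and 1.60 against 1.31 and 1.50, a difference of -0.15 (adjusted p = 0.241).

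Of 30 genes of S phase, such as those of the replicative helicase, 29 rose, 0 fell (0 also at an unadjusted p under 0.05) and 1, Gins3, did not pass by limma, with a median of 1.20 (2.30-fold), above the median of 0.86 of the cluster histone genes. The difference between these medians was not tested. Among all features, 34.6% rose and 24.2% fell. By quantile normalization Gins3 fell (-0.23, adjusted p = 0.0234), so that 1 of the 30 fell, and after median scaling it rose. The plot of the lists shows the spread within each.

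**Figure D5:**
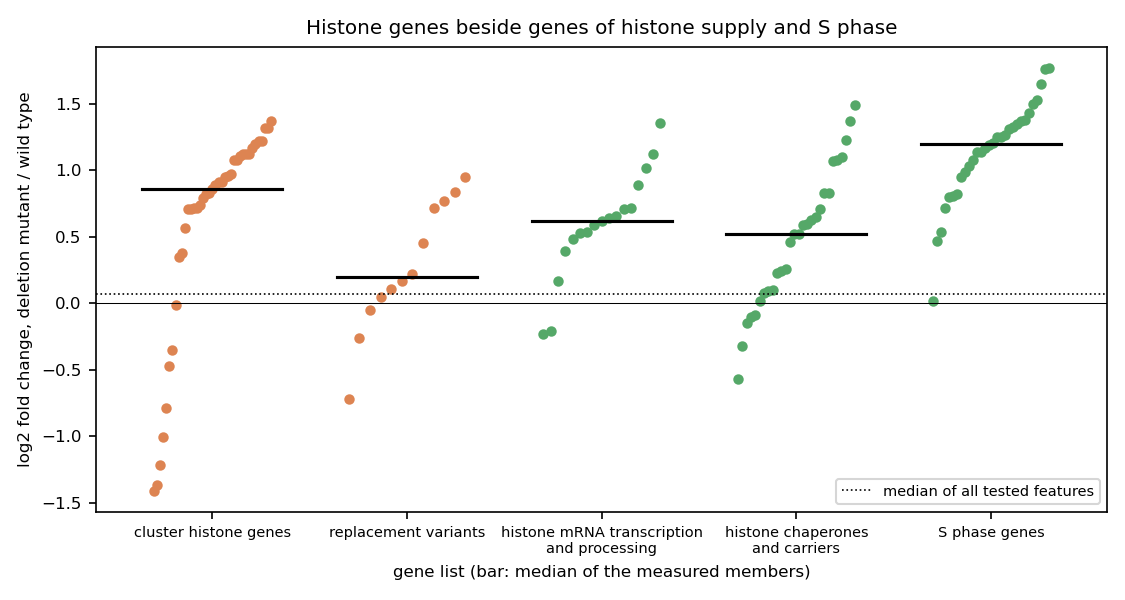
Log2 fold change (deletion mutant over wild type, y axis) of each measured gene of 5 lists (x axis), with a bar at the median of the list and a dotted line at the median of all features, 0.07. The medians are 0.86 for cluster histone genes, 0.19 for replacement variants, 0.62 for histone mRNA transcription and processing, 0.52 for chaperones and carriers and 1.20 for S phase genes; the cluster genes alone reach below -1.

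No level is given for 13 histone genes, because their probes were not well above background on both arrays of either group. The 10 cluster genes among them were Hist1h1d, Hist1h2ac, Hist1h2ae, Hist1h2al, Hist1h2bb, Hist1h2bg, Hist1h2bp, Hist1h2bq, Hist3h2ba and Hist3h2bb-ps, and the 3 replacement variants were H1fnt, H2afb1 and H2afb2-ps. H2B was the type most affected, with 6 of its 12 genes among them. Of the 51 measured genes, Hist1h1t and Hist2h2ab were kept through the deletion-mutant group alone, and on the 49 others, measured on all 4 arrays, 33 rose, 9 fell and 7 did not pass.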

How the data were processed

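Per the file headers, the authors scanned each 1-colour array and extracted it with Agilent Feature Extraction 10.10.1.1 (protocol GE1_1010_Sep10), and the deposited processed signals are intensity after background subtraction; further deposited columns used here are the mean and local background intensity and flags of 0 or 1. The authors also deposited log2 values, which differed from the log2 of these signals by a constant in each array (within 0.01, for 100% of probes), with a median near 4.45 on every array. Probe coordinates are those of mm9.

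From these, the log2 processed signal minus the 75th percentile of each array was computed, after leaving out control and outlier spots (116 to 142 per array; 11 probes lost). A probe was kept where a group had it well above background on both of its arrays, and each gene was its brightest kept probe. Groups were fitted with limma 3.58.1 (lmFit, eBayes) in R 4.3.3 over 18093 features, with Benjamini-Hochberg adjustment and a threshold of 0.05. A second fit took each of 25162 probes by itself. On simulated arrays for the fit of 18093 features, 71% of 200 features changed 2-fold were recovered. A far smaller share of features was changed there than passed in the data. The simulation therefore does not give the recovery of 2-fold changes here. Figures used matplotlib 3.10.9.

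Histone members, gene lists and motifs were chosen with earlier results of these data known. Named genes were every replacement variant, up to 4 cluster genes per type with the largest change that passed, those that did not pass, and others named for their number or probes. Same-numbered arrays of the groups were not paired by the labels. The stem-loop was found by a 16-base pattern of its stem and loop.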

Additional observations from a re-analysis of the deposited data

How the results depend on the processing

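The count of cluster genes that rose stayed at 29 to 30 when any array was left out, that of those that fell at 5 to 7, and their median at 0.85 to 0.90; for replacement variants these were 4 to 6, 0 to 2 and 0.16 to 0.28, and 7815 to 9561 features passed. No called histone gene turned its sign under the 5 scalings tried, and 37 of 43 calls held under all of them; H1f0, H1foo, H3f3a, Hist1h2be, Hist1h3d and Hist1h4h were lost under some. Scaling moved the median of all features by -0.06 (quantile), 0.18 (median and the authors' log2 values), -0.19 (percentile of detected probes) and 0.08 (E1A spike-ins). The cluster median was then 1.04 by median scaling and by the authors' log2 values, 0.66 by the percentile of detected probes, 0.94 by spike-ins, 0.71 with normexp and 0.72 with no background filter. The replacement median was 0.37 by median scaling and the authors' log2 values, 0.28 by spike-ins, 0.13 with normexp, 0.26 with the mean of a gene's probes, and -0.0014 by the percentile of detected probes. Of replacement variants, 1 fell with normexp, quantile, spike-in scaling, the mean of probes or the most gene-specific probe (an alternative chosen after seeing the data), and 0 fell with median scaling, the authors' values or no filter, against 2; 9 of 20 probes rose when every probe was taken by itself. With no filter, 6466 of 34816 features passed. Same-numbered arrays were not paired by the labels (the correlation of their deviations was 0.0472); with the replicate number as a block, 9990 features passed and 0 replacement variants fell. Uncalled genes turned sign: H2afv at 0.13 (median, authors' values), 0.03 (spike-ins), 0.01 (mean of probes) and 0.06 (most gene-specific probe), and from -0.16 to 0.06 without an array, H2afy2 at -0.12 (quantile) and -0.08 (percentile), H2afy3 at -0.17, -0.15 and, without an array, from -0.0034 to 0.10, H3f3b at -0.0039 and -0.02, Hist1h3c at 0.17 (median, authors' values) and 0.08 (spike-ins) and, without an array, 0.05 or 0.02, and Hist1h1t at -0.23 (up to 1.67 without another array). Called genes turned with the choice of probe: Hist2h2aa2 to -1.13 (mean of probes) and -2.98 (most gene-specific probe), Hist2h2bb to -0.77 and -2.43. Apart from these probe choices, the cause was not tested.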
